A study of Homo sapiens with 6 samples.

Results

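The genes described are 10 members of the Toll-like receptor system: the receptor genes TLR1, TLR2, TLR4, TLR5, TLR6, TLR7, TLR8 and TLR9, the lipopolysaccharide co-receptor CD14, and LY96, which encodes the TLR4 partner MD-2. They were taken by gene symbol, and all 10 were found among the 23710 symbols of the count table. All 10 were also among the 13591 genes with enough reads to be tested. RNA came from THP-1, a human cell line grown from a monocytic leukaemia and used as a model of monocytes. Cells had 6 h in 10 uM mebendazole, a benzimidazole drug that binds beta tubulin, or in its solvent DMSO, with 3 libraries of each in 3 labelled pairs. No genotype or other agent was named for either group, and as 1 leukaemia line the cells carry none of the variation between donors. Whether the pairs were separate cultures is not said in the labels, and the spread behind every p-value here may therefore be technical.

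Toll-like receptors are membrane proteins that bind molecules of microbes. At the cell surface, TLR2 pairs with TLR1 or TLR6 to bind bacterial lipopeptides, TLR4 binds lipopolysaccharide together with MD-2 after CD14 hands it over, and TLR5 binds flagellin. Inside endosomes, TLR7 and TLR8 bind single-stranded RNA and TLR9 binds DNA rich in unmethylated CpG. In monocytes their signals run through the adaptors MYD88 and TICAM1 to NF-kB and interferon regulatory factors.

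Library totals ranged from 13420558 to 15727667 reads, and replicates had Spearman correlations of 0.997 to 0.998. Levels are in CPM, a library's reads of a gene as a share of its total after scaling by TMM, a method that centres the bulk of genes between libraries. Among 16 markers of monocytes, 15 were tested, of which 3 rose with mebendazole and 10 fell, beside 40.6% of all tested genes called higher and 41.7% called lower. The 3 that rose were SPI1 (1.98-fold), FCGR2A (1.5-fold) and CD68 (1.07-fold), and CD4 and LILRB4 were not called. CD33 fell, at 26.3 ± 1.20 with mebendazole and 89.2 ± 2.23 CPM in DMSO. CSF1R (339 ± 9.63 and 453 ± 22.5 CPM) and LYZ (240 ± 10.9 and 388 ± 2.68 CPM) fell too. All of these were present in both groups, whereas FCN1 had 1 read in all. The largest falls that the rule for named genes took were MNDA (-5.55), CYBB (-3.88) and S100A8 (-3.09) on the log2 scale. The summed level of the list was 2530 to 2580 CPM with mebendazole and 2960 to 3090 CPM in DMSO. Of the other marker lists, 4 of 9 T and NK cell genes were tested and all 4 rose, beside the same 40.6% of all genes, and the list summed to 36.8 to 41.1 CPM with mebendazole and 15.6 to 18.2 CPM in DMSO. NKG7 alone gave 25.0 ± 0.384 CPM with mebendazole and 14.1 ± 0.913 CPM in DMSO (1.76-fold). CD8A rose 15.1-fold (212 reads with mebendazole and 16 in DMSO), GNLY 6.12-fold (104 and 20 reads) and NCAM1 3.9-fold (194 and 58 reads). The defining genes CD3D, CD3E and CD3G had 0 reads with mebendazole and 5, 1 and 2 in DMSO. The part of these markers in the results below was not tested, and in such bulk RNA fewer cells of a type and less RNA per cell cannot be told apart.

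Promoter sequences from RefSeq (GRCh38.p14) were used for 7 of the 10 genes, and TLR1, TLR7 and LY96 are named only. The 200 bases before the start are shown for CD14 and TLR4, which fell together, and for TLR9, which rose. They are also shown for TLR2, which had the highest level per length in both groups. The letters GAGGAA on either strand are in capitals (TTCCTC on the printed strand), a form of the ETS core that the myeloid factor PU.1 reads. Shorter forms of that core were not searched. The gene SPI1, which encodes PU.1, was itself higher at 638 ± 8.33 CPM with mebendazole and 323 ± 13.6 CPM in DMSO (SD, n = 3 each).
CD14 (chr5:140633176-140633375, minus strand): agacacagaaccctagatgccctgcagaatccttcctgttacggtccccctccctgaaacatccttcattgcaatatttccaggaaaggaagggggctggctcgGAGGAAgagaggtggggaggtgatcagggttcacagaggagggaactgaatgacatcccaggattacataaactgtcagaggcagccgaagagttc
TLR4 (chr9:117704203-117704402, plus strand): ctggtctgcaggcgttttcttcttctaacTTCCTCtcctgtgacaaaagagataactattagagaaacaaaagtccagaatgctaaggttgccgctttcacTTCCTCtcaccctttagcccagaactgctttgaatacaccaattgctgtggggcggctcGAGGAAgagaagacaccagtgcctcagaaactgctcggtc
TLR2 (chr4:153684080-153684279, plus strand): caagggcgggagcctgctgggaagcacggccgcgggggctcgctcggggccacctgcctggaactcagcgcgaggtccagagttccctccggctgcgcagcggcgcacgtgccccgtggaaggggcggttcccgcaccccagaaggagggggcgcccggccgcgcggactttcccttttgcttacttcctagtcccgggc
TLR9 (chr3:52225646-52225845, minus strand): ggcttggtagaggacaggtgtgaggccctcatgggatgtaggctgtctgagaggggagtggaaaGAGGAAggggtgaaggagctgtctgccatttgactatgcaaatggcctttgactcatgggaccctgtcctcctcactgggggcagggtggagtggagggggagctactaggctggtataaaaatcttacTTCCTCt
GAGGAA occurred in 4 of the 7 windows, with 3 matches at TLR4, 2 at TLR9 and 1 each at CD14 and TLR6, and in 19.3% of all 35116 promoters. Of those 4 genes, TLR6 and TLR9 were higher with mebendazole and CD14 and TLR4 lower. The Sp1 letters GGGCGG were found at TLR2, TLR4 and TLR5 (40.1% of all promoters), and a loose NF-kB motif at TLR2 and TLR5 (49.5%), where some of its matches overlap those of Sp1. The AP-1 letters TGANTCA (5.38%) and the TATA letters TATAAA (8.59%) were found only at TLR9 among the 7, and the C/EBP letters TTGCNNAA (6.91%) only at TLR8. Both strands were searched, and a match is a run of letters, not a site.

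Mebendazole moved the receptor genes in both directions. Of the 10 genes, TLR1, TLR6 and TLR9 rose, TLR2, TLR4, TLR5, TLR7, TLR8 and CD14 fell, and LY96 did not pass the test (edgeR quasi-likelihood test, Benjamini-Hochberg adjusted p under 0.05). These counts of 3 higher and 6 lower stand beside a response in which 40.6% of all tested genes were called higher and 41.7% lower. With 82.3% of all genes called, 9 called of 10 is near the background. The median absolute log2 fold change was 1.25 for the 10 genes and 0.60 for all genes tested. All 9 also passed a test against a 1.5-fold change, 3 higher and 6 lower, a rule that 21.3% of all genes passed upward and 21.2% downward (42.5% either way). Called with at least a 2-fold change were TLR1 and TLR9 upward and the 6 lower genes downward, beside 15.5% and 14.8% of all genes (30.4% either way). The median log2 fold change was -1.06 for the 10 genes and -0.03 for all genes. The groups did not overlap for 9 genes, beside 82.4% of all genes (40.5% of all lay wholly above DMSO with mebendazole and 41.9% wholly below).

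**Figure D1:**
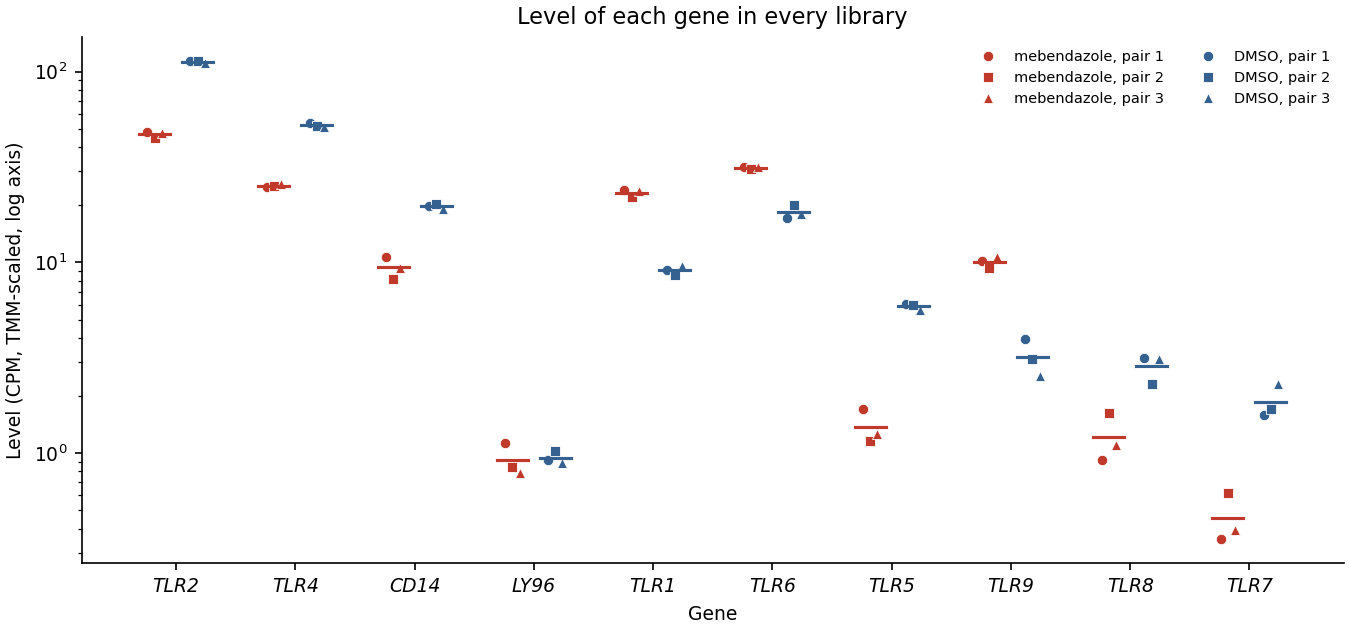
Level of each of the 10 genes in each library (CPM on a log axis, TMM-scaled), mebendazole in red left of DMSO in blue, with a symbol per pair and a line at the mean of 3. The groups overlap for LY96 alone among the 10, and levels of different genes are not comparable here, since CPM grows with transcript length.

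CD14, TLR4 and LY96 form the route by which monocytes sense lipopolysaccharide. TLR4, the signalling receptor, stood at 24.7, 25.0 and 25.7 CPM with mebendazole and at 53.9, 51.7 and 51.3 CPM in DMSO. Every mebendazole library thus lay under every DMSO library, and TLR4 fell by 1.06 on the log2 scale (SE 0.06, adjusted p = 7.1e-25, edgeR). CD14, the co-receptor that loads lipopolysaccharide, had 10.6, 8.21 and 9.36 CPM with mebendazole and 19.6, 20.1 and 19.1 CPM in DMSO. CD14 also fell by 1.06 (SE 0.09, adjusted p = 4e-16, edgeR), lower in 3 of 3 pairs. LY96, the MD-2 gene, was scarce, with 16, 11 and 10 reads with mebendazole and 14, 15 and 15 reads in DMSO. Its groups overlapped, at 0.921 ± 0.186 and 0.940 ± 0.0697 CPM (SD, n = 3 each), with a log2 fold change of -0.02 (SE 0.34, adjusted p = 0.95, edgeR). The ratio of its summed reads, 0.991, had an exact 95% counting interval of 0.622 to 1.57, and a ratio of the size seen in TLR4 (0.480) lay outside it. Changes within that interval were not detectable at this depth.

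Ratios of reads within a library do not depend on how libraries are scaled. For each of 6 ratios of partner genes, a two-sided exact permutation test of 3 against 3 libraries was made, which cannot go under p = 0.1. CD14 reads per TLR4 read were 0.428, 0.328 and 0.365 with mebendazole and 0.363, 0.388 and 0.373 in DMSO. The groups overlapped, with a difference of -0.01 on the log2 scale, smaller than the SD of 0.24 between pairs (exact p = 0.9, n = 3 each). LY96 reads per TLR4 read were 0.0460, 0.0337 and 0.0307 with mebendazole and 0.0171, 0.0197 and 0.0172 in DMSO. All mebendazole libraries were higher, and the ratio was 2.02-fold that of DMSO (exact p = 0.1, adjusted 0.12 over the 6 ratios).

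**Figure D2:**
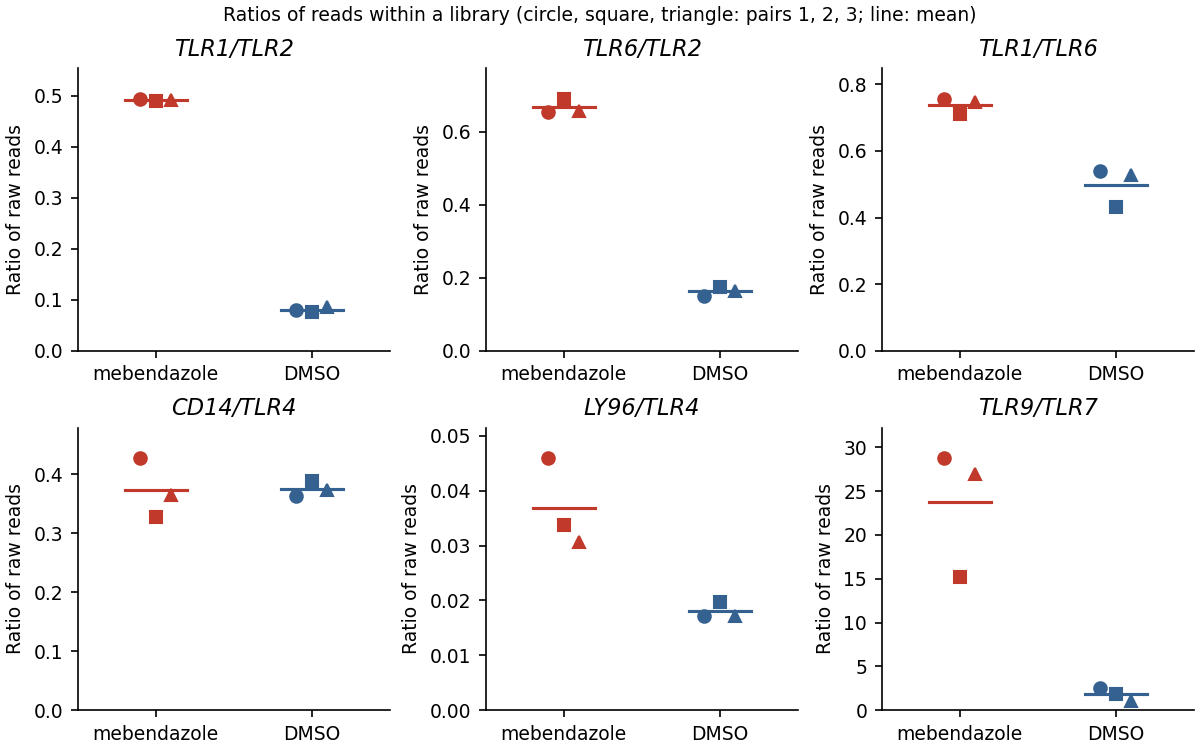
Ratio of raw reads of 2 genes within each library (linear axes from 0), mebendazole in red left of DMSO in blue, with a symbol per pair and a line at the mean of 3. CD14/TLR4 overlaps between groups, and the other 5 ratios are all higher with mebendazole.

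The lipopeptide receptors parted, TLR2 falling while its partners TLR1 and TLR6 rose. TLR2, the shared chain, stood at 48.3, 44.6 and 47.7 CPM with mebendazole and at 114, 113 and 111 CPM in DMSO. It fell by 1.26 on the log2 scale (SE 0.05, adjusted p = 1.8e-34, edgeR), with no overlap between groups. TLR1, the partner for triacylated lipopeptides, had 23.9, 21.9 and 23.5 CPM with mebendazole and 9.14, 8.61 and 9.52 CPM in DMSO. TLR1 rose by 1.34 (SE 0.09, adjusted p = 6.2e-22, edgeR), and its pairs gave 1.39, 1.35 and 1.30. TLR6, the partner for diacylated lipopeptides, had 31.5, 30.8 and 31.4 CPM with mebendazole and 17.0, 19.9 and 18.0 CPM in DMSO. Its rise of 0.77 (SE 0.07, adjusted p = 2.5e-15, edgeR) was seen in 3 of 3 pairs. It was past 1.5-fold (adjusted p = 0.0034), but not with libraries scaled by their totals (adjusted p = 0.87) nor in DESeq2 (adjusted p = 0.25).

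The balance of partner chains to the shared chain differed between the groups. TLR1 reads per TLR2 read were 0.495, 0.491 and 0.492 with mebendazole and 0.0804, 0.0759 and 0.0861 in DMSO, a 6.10-fold higher ratio. TLR6 reads per TLR2 read were 0.653, 0.691 and 0.658 with mebendazole and 0.149, 0.176 and 0.163 in DMSO, 4.11-fold higher. For both, every mebendazole library lay above every DMSO library, at the smallest p the design allows (exact p = 0.1, adjusted 0.12). TLR1 also gained on TLR6, with 0.739 ± 0.0240 reads per TLR6 read with mebendazole and 0.499 ± 0.0587 in DMSO (SD, exact p = 0.1, n = 3 each). TLR1 and TLR6 are neighbours in the genome and alike in sequence: of the 2800 stretches of 50 bases in the longest coding TLR1 transcript of GENCODE release 29, 238 (8.50%) also occur in that of TLR6. Reads from such stretches may be split or dropped, so the ratio between these genes is uncertain. With their reads summed as 1 gene, the rise was 0.99 (adjusted p = 4.7e-24, edgeR).

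TLR5, the flagellin receptor, had the lowest fitted value of the 10 genes, within its SE of that of TLR7. It had 24, 15 and 16 reads with mebendazole and 92, 88 and 96 reads in DMSO. In CPM this was 1.37 ± 0.291 with mebendazole and 5.89 ± 0.214 in DMSO (SD, n = 3 each), a log2 fold change of -2.09 (SE 0.20, adjusted p = 2.5e-15, edgeR). The mebendazole libraries all lay below the DMSO libraries, and the ratio of summed reads was 0.235 (95% counting interval 0.173 to 0.315).

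**Figure D3:**
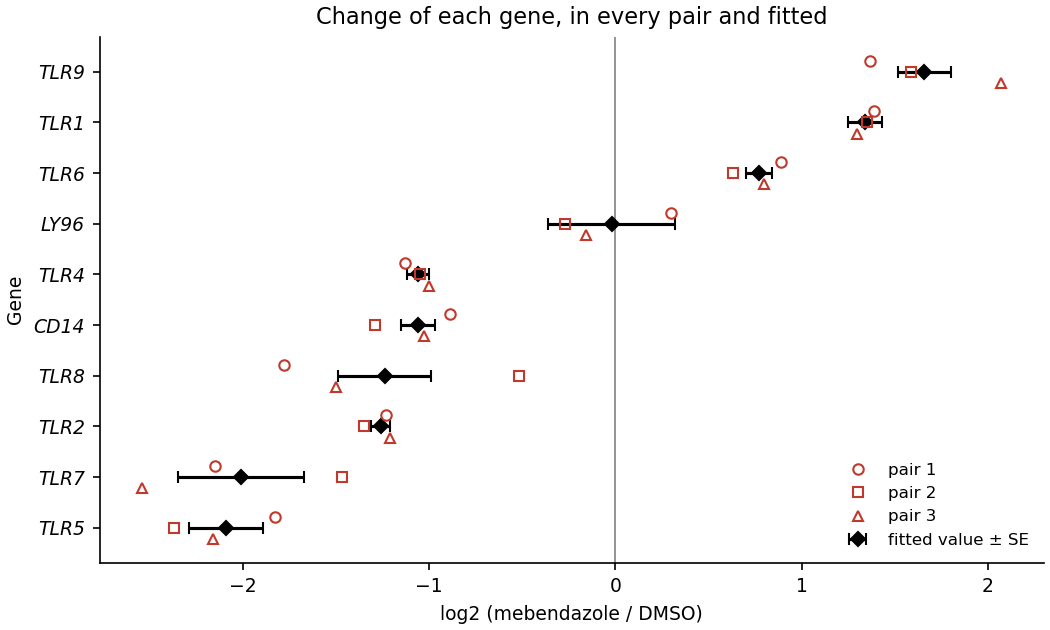
Log2 ratio of mebendazole to DMSO for each gene, from the largest rise at the top to the largest fall at the bottom, with open symbols for the 3 pairs and black diamonds for the edgeR fit ± SE. TLR9, TLR1 and TLR6 lie right of 0 in every pair, 6 genes lie left of 0 in every pair, and LY96 lies on both sides.

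Among the endosomal receptors, the DNA sensor rose and the RNA sensors fell. TLR9 had 144, 122 and 135 reads with mebendazole and 60, 46 and 43 reads in DMSO. All mebendazole libraries were higher, at 10.1 ± 0.644 with mebendazole and 3.20 ± 0.711 CPM in DMSO (SD, n = 3 each), and the log2 fold change was 1.66 (SE 0.14, adjusted p = 6.3e-17, edgeR). TLR7, a sensor of single-stranded RNA, had only 5, 8 and 5 reads with mebendazole and 24, 25 and 39 reads in DMSO. Its log2 fold change was -2.01 (SE 0.34, adjusted p = 3.5e-07, edgeR), and its ratio of summed reads, 0.241, had a counting interval of 0.137 to 0.403. TLR8, its neighbour on chromosome X and also an RNA sensor, had 13, 21 and 14 reads with mebendazole and 48, 34 and 53 reads in DMSO. TLR8 was lower in 3 of 3 pairs, but by unequal amounts of -1.78, -0.52 and -1.50, and the fit gave -1.24 (SE 0.25, adjusted p = 8.1e-06, edgeR). Its ratio of summed reads was 0.419 (0.295 to 0.587).

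The falls of TLR7 and TLR8 rest on few reads. Against a 1.5-fold change, DESeq2 did not call TLR7 (adjusted p = 0.056) or TLR8 (adjusted p = 0.38), and edgeR did not call TLR8 without pair 1 (adjusted p = 0.063). TLR9 reads per TLR7 read were 28.8, 15.2 and 27.0 with mebendazole and 2.50, 1.84 and 1.10 in DMSO, 13.3-fold higher with mebendazole and higher in 3 of 3 pairs (exact p = 0.1, adjusted 0.12, n = 3 each). For TLR9, 86.3% of exon bases are also annotated in GENCODE release 29 to the protein-coding gene AC097637.1, which shares 463 exon bases with the actin-binding gene TWF2 and was not used here. TWF2 itself rose, at 101 ± 5.30 with mebendazole and 52.1 ± 1.56 CPM in DMSO (log2 fold change 0.96), and the part of such joined transcripts in the TLR9 reads was not tested. TLR9 is best known from B cells and plasmacytoid dendritic cells. Of 12 markers of those cells only 3 passed the filter on low counts. CD22 and IL3RA were higher and CD79B lower, beside 40.6% of all genes called higher and 41.7% lower. The 12 markers summed to 30.2 to 31.8 CPM with mebendazole and 18.2 to 20.3 CPM in DMSO, mostly from IL3RA. CLEC4C and TCL1A had 0 reads. Also not tested, BLNK had 2 reads with mebendazole and 54 in DMSO, LILRA4 3 and 19, and GZMB 20 and 0. The part of these cells was not tested.

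The order of levels per length changed with the drug. Levels were divided by the exon length of each gene in GENCODE release 29, giving CPM per kb. With mebendazole, TLR2 (10.1 ± 0.418) came first, then TLR1 (6.60 ± 0.291), TLR6 (5.18 ± 0.0610), CD14 (4.97 ± 0.623), TLR9 (2.60 ± 0.167), TLR4 (1.93 ± 0.0389), LY96 (1.52 ± 0.306), TLR5 (0.319 ± 0.0679), TLR8 (0.278 ± 0.0822) and TLR7 (0.0906 ± 0.0279). In DMSO, TLR2 (24.3 ± 0.369) came first, then CD14 (10.4 ± 0.255), TLR4 (4.01 ± 0.109), TLR6 (3.03 ± 0.249), TLR1 (2.60 ± 0.131), LY96 (1.55 ± 0.115), TLR5 (1.37 ± 0.0498), TLR9 (0.826 ± 0.184), TLR8 (0.657 ± 0.110) and TLR7 (0.370 ± 0.0765). Neighbours in these orders overlapped between libraries for TLR6 and CD14 and for TLR5 and TLR8 with mebendazole, and for TLR9 and TLR8 in DMSO. The place of TLR4 depends on its long annotated exons of 13020 bases, of which 2517 are coding: by coding length TLR4 ranked 3 with mebendazole and 2 in DMSO, and TLR2 stayed first in both groups. The order of TLR1 and TLR6 also depends on the length used. With mebendazole, by coding length TLR6 ranked 2 and TLR1 ranked 4, below TLR4. In DMSO, by the longest transcript TLR1 ranked 4 and TLR6 ranked 5. By coding length in DMSO, TLR5 ranked 6 and LY96 ranked 7.

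TLR2 held a smaller share of the receptor RNA after the drug. Of the CPM per kb summed over the 8 receptor genes, TLR2 made up 37.3% ± 0.351 with mebendazole and 65.4% ± 0.306 in DMSO (SD, n = 3 each). TLR1 made up 24.4% ± 0.351 with mebendazole and 7.0% ± 0.411 in DMSO, and TLR6 19.1% ± 0.404 and 8.18% ± 0.690. TLR4 made up 7.12% ± 0.257 with mebendazole and 10.8% ± 0.153 in DMSO, where its share was second to that of TLR2. The 3 endosomal receptors together held 11.0% ± 0.346 with mebendazole and 4.99% ± 0.500 in DMSO, with TLR9 the main part with mebendazole at 9.59% ± 0.358. The sum itself was 27.1 ± 0.872 with mebendazole and 37.1 ± 0.473 CPM per kb in DMSO. By coding length, chosen after seeing the data, the TLR2 share was 34.9% with mebendazole and 56.3% in DMSO. The TLR1 share was then 17.2% with mebendazole and 4.54% in DMSO, below the TLR6 share of 22.9% and 9.03%, and the endosomal share 6.61% and 2.97%. The TLR4 share by coding length was 17.5% with mebendazole and 24.4% in DMSO, so it depends strongly on the length used.

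**Figure D4:**
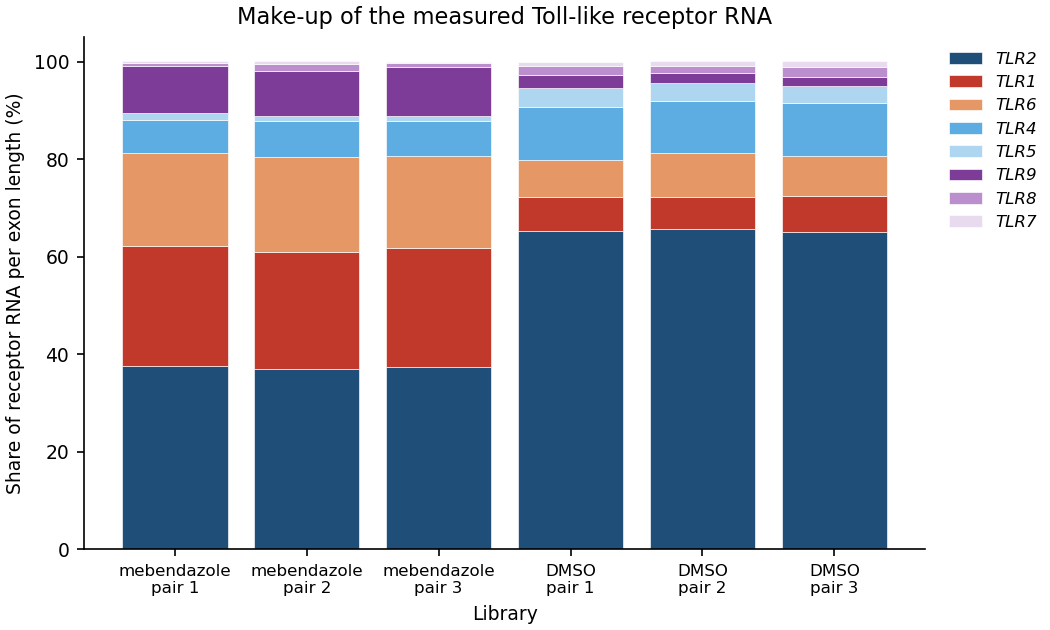
Share of each of the 8 receptor genes in their summed CPM per kb of exon length (percent), for each library, with the mebendazole libraries left of the DMSO libraries. TLR2 takes 36.9% to 37.6% in the mebendazole libraries and 65.1% to 65.7% in the DMSO libraries, and TLR1, TLR6 and TLR9 take more with mebendazole.

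The family's remaining human members, TLR3 and TLR10, had no reads or few. TLR3, a sensor of double-stranded RNA, had 0 reads in all 6 libraries, which allows a level of up to 0.0753 CPM with mebendazole and 0.0639 CPM in DMSO (3 reads over a group's summed libraries, counting error only). TLR10 had 8, 9 and 8 reads with mebendazole and 4, 6 and 6 reads in DMSO and did not pass the filter on low counts. Its mebendazole libraries all lay above its DMSO libraries, and its ratio of summed reads was 1.84 (95% counting interval 0.945 to 3.69). With mebendazole, TLR10 was at 0.152 ± 0.0149 CPM per kb, above TLR7 at 0.0906 ± 0.0279.

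Genes that fold, carry and process the receptors went both ways. Of 18 tested, 8 rose, 7 fell and 3 did not pass the test, with a median log2 fold change near 0, beside the 82.3% called among all genes. Of the chaperones and carriers, UNC93B1, which brings endosomal receptors to endosomes, fell and was at 54.7 ± 2.85 with mebendazole and 103 ± 6.22 CPM in DMSO (-0.91). HSP90B1, the chaperone gp96 on which most Toll-like receptors depend, fell by 0.98, and its cofactor gene CNPY3 by 1.04. Of the other chaperones and carriers tested, RAB10 (0.63), ARF6 (0.62), TMED1 (0.56) and AP3D1 (0.09) rose on the log2 scale. TMED7 (-0.32), AP3B1 (-0.40) and SLC15A4 (-0.34) fell, and CNPY4 and LRRC59 were not called. Of the cathepsins, a family of proteases some of which trim endosomal receptors, CTSL1 was at 533 ± 21.4 with mebendazole and 64.3 ± 1.84 CPM in DMSO (8.29-fold), and CTSK rose 3.11-fold and CTSB 3.02-fold. CTSH fell by 0.57, and CTSS had 220 ± 11.3 CPM with mebendazole, against 225 ± 1.80 CPM in DMSO (adjusted p = 0.36, edgeR).

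Accessory proteins of the surface receptors also went both ways. Of 15 tested, 4 rose, 8 fell and 3 did not pass the test (median -0.35), a share called near the 82.3% of all genes. CD36, a scavenger receptor that assists TLR2 with TLR6, was at 42.3 ± 2.95 with mebendazole and 126 ± 2.06 CPM in DMSO (-1.57). SCARB1, a lipoprotein receptor that also binds lipopolysaccharide, fell by 2.20. CD180, a receptor related to TLR4, and its partner LY86, named MD-1, fell by 0.95 and 0.69. TLR4's own partner LY96 did not pass the test, but had only 37 reads with mebendazole and 44 in DMSO. Whether the changes of LY86 and LY96 differ was not tested. The rise among them was led by CD55, an inhibitor of complement, at 353 ± 16.1 with mebendazole and 23.9 ± 0.814 CPM in DMSO (14.7-fold).

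Adaptors and proximal kinases rose in 14 of 25 and fell in 7 (median 0.45), and 4 did not pass the test. This count and those of the next 3 lists stand beside 40.6% of all genes called higher and 41.7% lower, and are not read as particular to the lists. MYD88, the adaptor that the receptors described here share, was at 48.9 ± 1.88 with mebendazole and 80.2 ± 0.647 CPM in DMSO (-0.71). TICAM1, the adaptor of TLR3 and TLR4, rose 2.33-fold to 35.3 ± 0.404 CPM. IRAK2, at 224 ± 12.9 with mebendazole and 6.78 ± 0.577 CPM in DMSO, and PELI1, a ubiquitin ligase for IRAK1 (3.68-fold), had the largest called rises of the list, and the tyrosine kinase SYK fell by 1.36. Inhibitors close to the receptors rose in 8 of 19 and fell in 9 (median -0.17). TNFAIP3, the deubiquitinase A20, rose 7.89-fold to 570 ± 7.50 CPM, and IRAK3, a kinase-dead brake of the pathway, fell by 1.00. The immune receptors CD300A (-2.16) and TREM2 (-1.67) fell. In the interferon arm 5 of 10 genes rose and 3 fell (median 0.14). IRF5 and IRF8, transcription factors downstream of TLR7, TLR8 and TLR9, fell by 1.59 and 1.82, and IRF7 rose 3.13-fold to 31.4 ± 1.95 CPM. Transcription factors of monocytes rose in 10 of 16 and fell in 4 (median 0.28), with JUN 7.93-fold and CEBPB 5.30-fold higher.

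**Figure D5:**
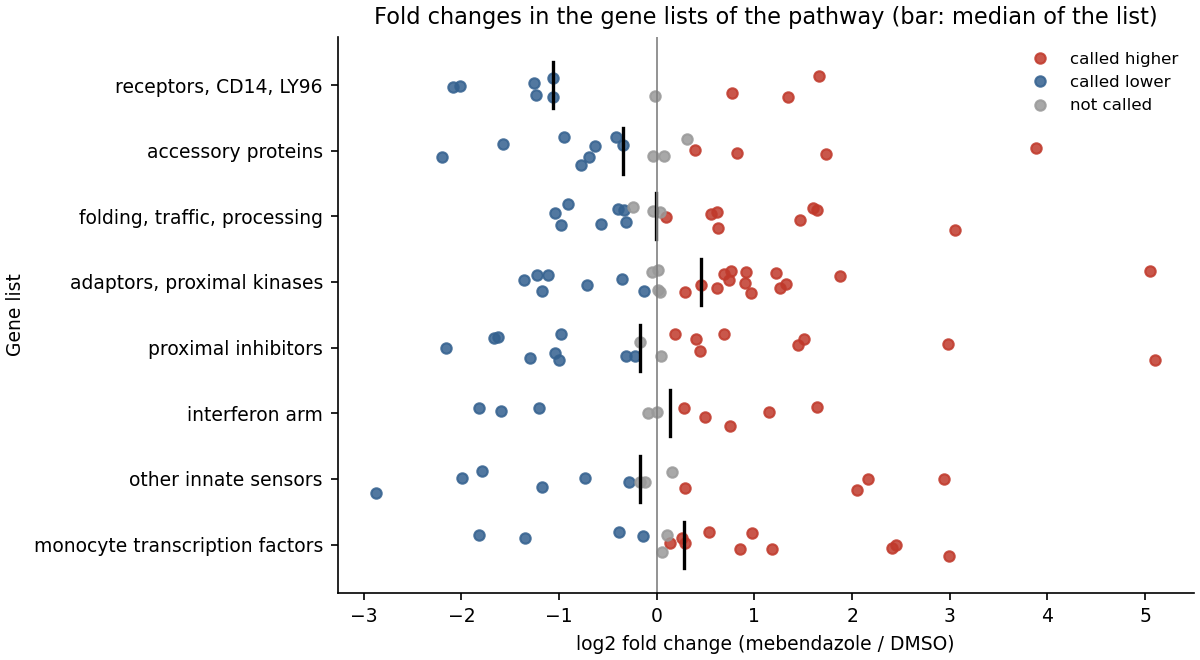
Log2 fold change (mebendazole over DMSO, edgeR) of each tested gene in 8 lists of the pathway, red where called higher, blue where called lower, grey where not called, with a black bar at the list's median. The 10 genes described here have a median of -1.06, the adaptors and proximal kinases 0.45.

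Genes whose pattern lay nearest to that of 3 members were looked up among the 9498 genes averaging at least 10 CPM, by the distance between log2 CPM values over the 6 libraries, centred on each gene and pair. For CD14 these were NOC3L (distance 0.0434), MRPS26 and GTF2A2. For TLR2 they were LYPLAL1 (0.0262), C17orf89 and DCAF13. For TLR4 they were NCKAP1L (0.0356), MRPS27 and RNF166. With 3 pair differences behind each distance, these names only describe the table.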

How the data were processed

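The authors deposited raw read counts by gene symbol, 1 column per sample. STAR, bedtools, HTSeq, DESeq2 and hg19 are named without roles or versions, per the submitters' processing notes, and the gene annotation is not given in the sources used here. Libraries used TruSeq RNA v2, per the labels' protocols, a kit that does not mark strand. The exon overlaps found for TLR1, TLR4, TLR6 and TLR9 were with genes on the same strand. Reads from those shared bases could therefore not be told apart by strand with any kit. 0 columns belonged to no sample. Counts were fitted over all genes in R 4.3.3 with edgeR 4.0.16 (filterByExpr, TMM, two-sided quasi-likelihood test), with the labelled sample pair as a term, and the fit was also run on simulated data. The call rule was an adjusted p (Benjamini-Hochberg) under 0.05, and glmTreat tested against 1.5-fold. The fit had 2 residual degrees of freedom per gene and a prior worth 61, so small p-values rest mostly on the spread pooled over genes. The SE is the change over the square root of F and can lie below counting error, so sparse genes also have exact (Clopper-Pearson) 95% intervals, which cover counting error only. Lengths and overlaps came from GENCODE release 29 (GRCh38) by symbol. Alternatives were DESeq2 1.42.0, other scalings and filters, no pair term and each pair left out.

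The members, lists and tests were chosen with earlier results of these data known. Named were the members, TLR3, TLR10 and, per list, the 3 largest changes among called genes that averaged at least 5 CPM and moved alike in every pair, and for CD14, TLR2 and TLR4 the 3 nearest genes. Every other gene was named after its values were seen. Results for some list genes are not reported here.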

Additional observations from a re-analysis of the deposited data

How the results depend on the processing

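In every alternative that tested them, 9 of the 10 genes kept their direction and their call. The lowest and highest log2 fold changes over the alternatives were 1.10 and 1.37 for TLR1, 0.53 and 0.86 for TLR6, 1.42 and 1.83 for TLR9, -1.51 and -1.21 for TLR2, and -1.30 and -0.94 for CD14. With testing limited to genes averaging at least 10 CPM, 3 members were called lower and 3 passed 1.5-fold lower, since TLR5, TLR7, TLR8, TLR9 and LY96 were then not tested. The fold change of LY96 lay between -0.22 and 0.11 without 1 pair, so its sign reversed (0.11 without pair 2, 0.036 without pair 3), and the CD14 to TLR4 ratio had differences of -0.14 to 0.10 without 1 pair, and the cause was not tested. DESeq2 placed 2 of the genes past 1.5-fold higher and 4 lower, and without pair 1 edgeR placed 5 lower. Library totals shifted the median gene by -0.24 on the log2 scale and made 36.4% of called genes higher, against 49.3% with TMM, while the 10 genes kept their calls. Without the replicate block the 10 genes kept their calls, 3 higher and 6 lower (TLR2 -1.26, TLR9 1.66), and 5480 genes in all were called higher and 5638 lower. The pair numbers are a characteristic in the labels, which do not say what a pair shared, and deviations of the libraries of a pair correlated at only -0.000997, 0.0614 and 0.0155. Depth limits LY96, TLR7, TLR8 and TLR5, which had 18 to 55 reads over the mebendazole libraries.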

Other observations

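Of 13 innate sensors tested outside the Toll-like family, 4 were higher, 6 lower and 3 not called (median log2 fold change -0.17), beside 40.6% of all genes called higher and 41.7% lower. TMEM173, the adaptor STING of cytosolic DNA sensing, was at 27.9 ± 1.14 CPM with mebendazole and 205 ± 7.95 CPM in DMSO (log2 fold change -2.87, adjusted p = 7.9e-55, edgeR). IFI16, a DNA sensor of the nucleus and cytosol, fell by 1.99, and NLRC4, an inflammasome protein in the sensing of flagellin, fell by 1.17. DHX58, a helicase related to RIG-I, had a log2 fold change of -1.79. The formyl peptide receptors FPR1 and FPR2, which guide cells to bacterial peptides, rose 4.15-fold and 4.48-fold, to 25.5 ± 1.98 and 25.4 ± 2.73 CPM. TREM1, a receptor that amplifies inflammatory signals, rose 7.69-fold to 35.0 ± 2.02 CPM. The muramyl dipeptide sensor NOD2 had 22.8 ± 1.87 CPM with mebendazole and 20.4 ± 0.655 CPM in DMSO (adjusted p = 0.056, edgeR), and NOD1 fell by 0.73.

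Of 6 neutrophil markers tested, 1 rose, 3 fell and 2 were not called, beside 40.6% of all genes called higher and 41.7% lower. MMP9 rose 6.76-fold, and CXCR2 (-3.30), CSF3R (-0.24) and CAMP (-0.78) fell. ELANE, at 633 ± 29.6 CPM with mebendazole and 658 ± 15.1 CPM in DMSO, and MPO were not called. FCGR3B and CEACAM8 had 0 reads. The list summed to 803 to 860 CPM with mebendazole and 814 to 854 CPM in DMSO. Of 4 epithelial and endothelial markers tested, 2 rose, none fell and 2, VWF and COL1A1, were not called, beside the same shares of all genes. PECAM1 rose 1.43-fold, at 135 ± 11.3 CPM with mebendazole and 94.2 ± 5.91 CPM in DMSO. KRT8 rose on few reads, 60 with mebendazole and 41 in DMSO.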
